A study of Rattus norvegicus with 8 samples.

Results

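Solute carriers are a large class of membrane transporters, numbered in families by sequence (Slc1, Slc2 and so on), and 65 of their genes were compared between rat livers on a choline-deficient and on a choline-sufficient diet. The 65 genes are those of the 2462 in the authors' deposited table whose symbol is Slc followed by a family number and a letter, with Slc7a11, Slc27a5, Slc10a1 and Slc37a4 left out by the selection rule. Of these 4, 1 rose and 3 fell on the deficient diet by the authors' deposited table. RNA came from the livers of 8 wild-type rats of the inbred Fischer 344 strain at an age of 1 year. The 4 control rats ate an amino acid-defined diet with sufficient choline (CSAA), and the 4 others ate the choline-deficient form of that diet (CDAA), under which hepatocellular carcinoma had arisen. Neither the sex of the animals nor whether nodules or surrounding liver were taken is in the labels.

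Each gene's values are group values. They are the fragments per kilobase (FPKM, a level scaled to transcript length and library size) of each diet, and the log2 fold change of CDAA over CSAA with the standard error (SE) of the authors' DESeq2 model. Every gene of the table had passed an adjusted p of 0.01 in each of 3 programs, so presence in it already means a change, and the counts of solute carriers describe direction and size only. A gene absent from it either missed a test or was not tested. The samples are bulk liver, in which fewer cells of a type and less RNA per cell cannot be told apart. The hepatocyte genes Ttr (13443 and 6364 FPKM in CSAA and CDAA) and Hnf4a (179 and 102 FPKM) were expressed on both diets by the authors' deposited table.

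Solute carriers move amino acids, sugars, ions, vitamins and drugs across the plasma membrane, and metabolites across organelle membranes. Hepatocytes take up organic ions and amino acids from portal blood with them, and export glucose and metal ions. Carriers of the Slc25 family link the mitochondrion to the cytosol for urea synthesis, gluconeogenesis and fatty acid synthesis. Close relatives often carry the same substrate in different tissues, so that a hepatocyte form has a counterpart in other or growing cells.

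The solute carriers went both ways, with 34 higher (52.3%) and 31 lower (47.7%) in CDAA by the authors' deposited table, against 57.1% and 42.9% of all its genes. At least a 2-fold change was recorded for 29 risers (44.6%, against 50.2% of all genes) and 20 fallers (30.8%, against 24.9%) by the authors' deposited table. Risers had a median log2 fold change of 1.57 and fallers one of -1.25, beside 1.65 and -1.08 for all risers and fallers of the authors' deposited table. By substrate, amino acid carriers were mostly higher, 14 of 18, and metal carriers mostly lower, 6 of 7, by the authors' deposited table. Of the 9 mitochondrial carriers 6 fell, and the carriers of organic ions, of vitamins and of inorganic ions were divided, by the authors' deposited table.

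**Figure D1:**
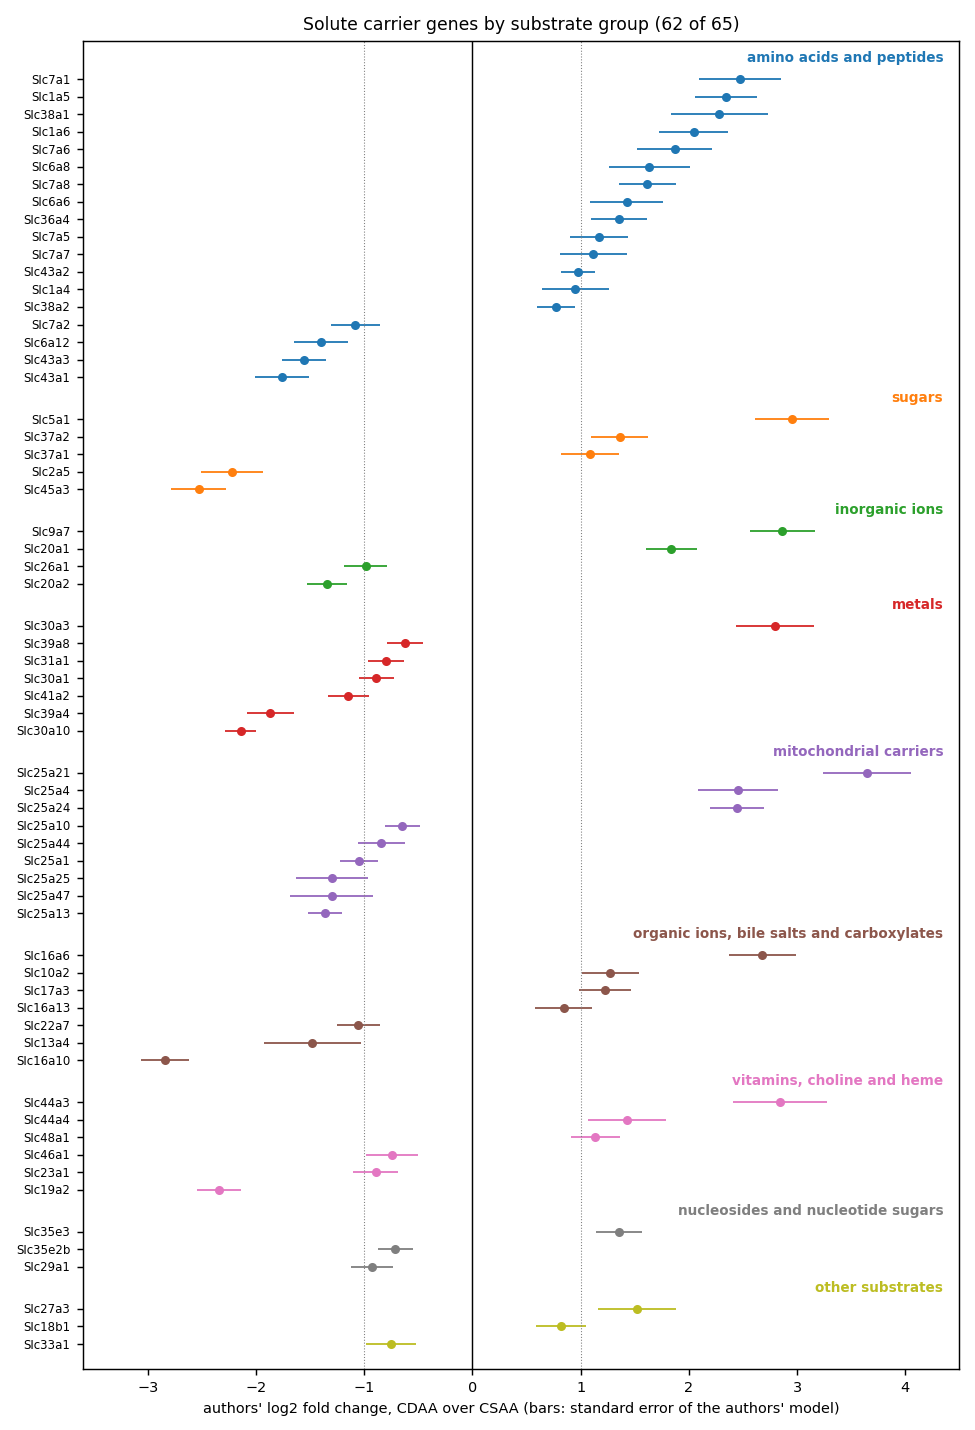
Log2 fold change of CDAA over CSAA (horizontal axis) for 62 solute carrier genes in rows, coloured by substrate group, with bars for the SE of the authors' DESeq2 model and dotted lines at a 2-fold change. Amino acid carriers lie mostly to the right (14 of 18) and metal carriers mostly to the left (6 of 7); Slc5a9, at 0 FPKM in CSAA, and 2 genes whose values are not reported are not drawn.

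Direction went with the level in control liver. All 30 solute carriers under 5 FPKM in CSAA rose, where 92.3% of all such genes in the authors' deposited table did. Of the 35 solute carriers at 5 FPKM or more, 4 rose (11.4%), against 18.2% of all such genes in the authors' deposited table. These 4 exceptions were Slc17a3, Slc38a2, Slc20a1 and Slc48a1, at 36.9, 20.4, 15.1 and 10.3 FPKM in CSAA by the authors' deposited table. The median level of the risers went from 0.702 to 2.80 FPKM and that of the fallers from 33.9 to 14.8 FPKM by the authors' deposited table. A gene at a low level has few reads with which to pass as a faller, and the part of this selection in the pattern was not tested. All 6 genes over 100 FPKM in CSAA fell, and 1 of them, Slc7a2, was still over 100 FPKM in CDAA by the authors' deposited table. Of all genes at 5 FPKM or more in CSAA 81.8% were lower, and the share over 100 FPKM is not given here. Summed over the 65 genes, the level went from 2026 to 1137 FPKM by the authors' deposited table. The risers gained from 119 to 329 FPKM and the fallers dropped from 1907 to 809 FPKM. Summed over all genes of the authors' deposited table, the level went from 200673 to 91180 FPKM, so a lower sum is not particular to solute carriers. With at least 5 FPKM asked for in the higher group, 9 of the 34 risers and all 31 fallers were left by the authors' deposited table.

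**Figure D2:**
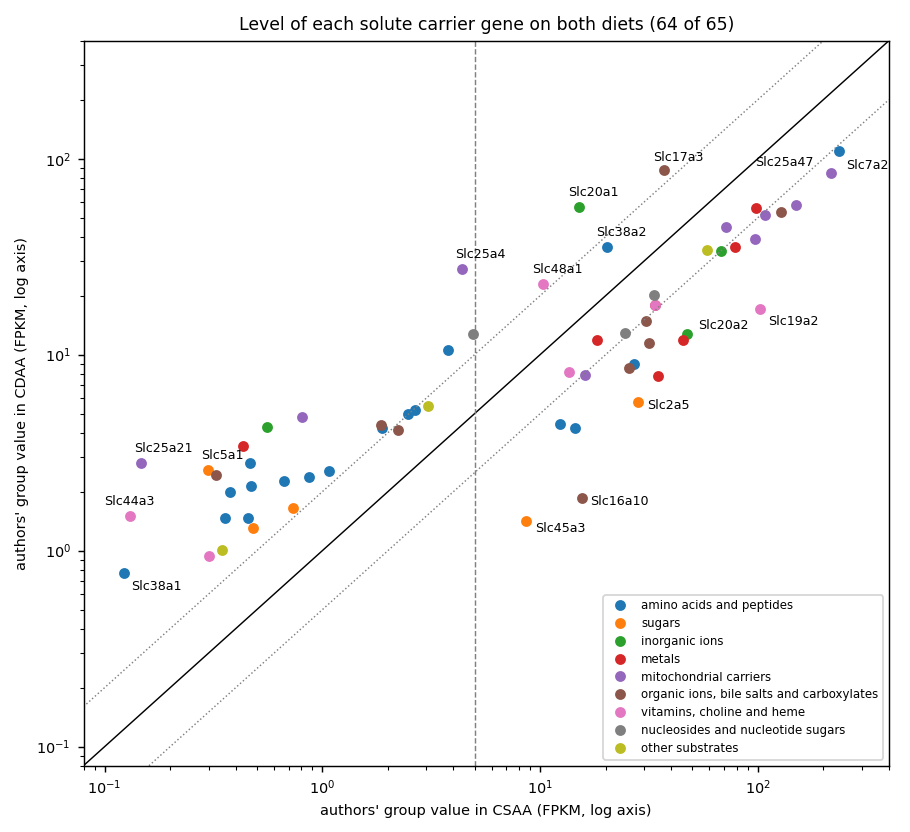
Level of 64 solute carrier genes in CSAA (horizontal) and CDAA (vertical), both in FPKM on log axes, with the diagonal of no change, dotted lines at 2-fold and a dashed line at 5 FPKM in CSAA. All points left of the dashed line lie above the diagonal, and 4 of those right of it do.

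Amino acid carriers formed the largest group, with 14 members higher (77.8%, against 57.1% of all listed genes) and 4 lower. Their median log2 fold change was 1.26, beside 1.01 for all genes of the authors' deposited table. In CSAA 13 of the 14 risers were under 5 FPKM, where 92.3% of all listed genes were higher. The 4 fallers were above 5 FPKM, where 81.8% of all listed genes were lower. The directions in this group are thus close to those of other listed genes at such levels. Slc7a1 (ENSRNOG00000000924), which encodes CAT1, the cationic amino acid transporter of most tissues outside the liver, went from 0.467 to 2.81 FPKM by the authors' deposited table. Its 5.55-fold rise in DESeq2, 2.47 ± 0.37 (SE) on the log2 scale, was the largest DESeq2 rise of the group by the authors' deposited table (DESeq2 adjusted p = 8.64e-10). Slc1a5, the glutamine carrier ASCT2, went from 0.375 to 1.99 FPKM, or 2.34 ± 0.29 on the log2 scale, by the authors' deposited table. Slc38a1, the glutamine carrier SNAT1, went from 0.122 to 0.766 FPKM (2.28 ± 0.45) by the authors' deposited table and rested on a mean normalised count of 14.4, the lowest of the 65 genes. These steep risers were still weakly expressed in CDAA livers.

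Light subunits of the heterodimeric amino acid exchangers rose together. The large neutral amino acid exchangers Slc7a5 (LAT1) and Slc7a8 (LAT2) rose by 1.17 ± 0.27 (SE) and 1.62 ± 0.26 on the log2 scale by the authors' deposited table. Slc7a6 and Slc7a7, which encode the y+L exchangers of cationic against neutral amino acids, rose by 1.87 ± 0.35 and 1.12 ± 0.31 by the authors' deposited table. All 4 were under 5 FPKM on both diets, from 0.356 to 1.88 FPKM in CSAA and from 1.47 to 4.20 FPKM in CDAA, by the authors' deposited table. Among all genes under 5 FPKM in CSAA in the authors' deposited table, 92.3% were higher. Slc3a2, the heavy subunit that brings these exchangers to the membrane, was not in the authors' deposited table.

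Other amino acid carriers, most of them sodium-coupled, rose by 0.77 to 2.04 on the log2 scale by the authors' deposited table. Slc38a2, the neutral amino acid carrier SNAT2 that responds to amino acid shortage, rose from 20.4 to 35.6 FPKM, or 0.77 ± 0.17 (SE), by the authors' deposited table. This was the smallest rise among the 34 and the highest level among the amino acid carriers that rose. Slc1a4, the alanine and serine carrier ASCT1, went from 2.48 to 4.96 FPKM (0.95 ± 0.31) by the authors' deposited table. The taurine carrier Slc6a6 went from 3.76 to 10.5 FPKM (1.43 ± 0.34) and the creatine carrier Slc6a8 from 0.668 to 2.27 FPKM (1.63 ± 0.37) by the authors' deposited table. Slc1a6, a glutamate carrier known from cerebellar neurons, rose by 2.04 ± 0.32, and the proton-coupled Slc36a4 by 1.35 ± 0.26, by the authors' deposited table. Slc43a2, the branched-chain amino acid carrier LAT4, rose by 0.97 ± 0.16 by the authors' deposited table.

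The 4 amino acid group members that fell had all been above 10 FPKM in control liver, a range that 1 of the 14 risers shared. Slc7a2 (ENSRNOG00000011016), the hepatocyte arginine and lysine carrier CAT2, had the highest level of all 65 genes and fell from 236 to 109.5 FPKM, or -1.08 ± 0.23 (SE), by the authors' deposited table. Slc43a1, the branched-chain amino acid carrier LAT3 of liver, fell from 14.5 to 4.24 FPKM (-1.76 ± 0.25) by the authors' deposited table. Its relative Slc43a3, which in human cells carries purine nucleobases, fell from 26.9 to 9.003 FPKM (-1.56 ± 0.20) by the authors' deposited table. Slc6a12 takes up betaine, the methyl donor that is made from choline, and fell from 12.4 to 4.43 FPKM (-1.40 ± 0.25) by the authors' deposited table.

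Of 10 amino acid carriers known to respond to ATF4, the transcription factor of the amino acid response, 6 rose (Slc7a1, Slc1a5, Slc38a1, Slc7a5, Slc1a4 and Slc38a2) and Slc43a1 fell by the authors' deposited table. Of the 7 listed, 85.7% were thus higher, beside 57.1% of all genes in the authors' deposited table, and 5 of the 7 were under 5 FPKM in CSAA, where 92.3% of all were higher. ATF4 binds the CARE element, of which TGATGNAA is a consensus. This motif was searched on both strands of the RefSeq promoter windows of assembly GRCr8, 250 bases before to 50 after each gene's start, which were found for 50 of the 65 genes. It occurred in the windows of 3 of the 50 genes (6.0%), against 4.16% of the 27457 genes with a window. Some genes have more than 1 window, and with 1 window per gene the latter share was 3.82%. The 3 genes were Slc1a4, Slc38a1 and Slc7a1, which all rose by the authors' deposited table. Slc7a5, Slc38a2 and Slc43a1 had a window without these letters. The 250 bases before the start of the 3 genes are shown because these risers of the ATF4-responsive list share the motif, whose letters are in capitals. They are read 5′ to 3′ on the gene's strand, from GRCr8 chr14:98761563-98761812 (minus strand) for Slc1a4, chr7:129681402-129681651 (minus strand) for Slc38a1 and chr12:11664238-11664487 (plus strand) for Slc7a1.
Slc1a4: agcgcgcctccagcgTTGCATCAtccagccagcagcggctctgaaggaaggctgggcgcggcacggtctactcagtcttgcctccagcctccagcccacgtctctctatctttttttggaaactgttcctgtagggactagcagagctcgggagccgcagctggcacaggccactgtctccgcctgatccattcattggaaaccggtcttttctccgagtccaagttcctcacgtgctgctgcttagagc
Slc38a1: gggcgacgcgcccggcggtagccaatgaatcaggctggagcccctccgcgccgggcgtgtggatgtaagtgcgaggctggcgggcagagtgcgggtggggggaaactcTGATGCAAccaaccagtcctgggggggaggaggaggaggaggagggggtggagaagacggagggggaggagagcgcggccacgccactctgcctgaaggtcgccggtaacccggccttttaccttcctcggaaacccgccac
Slc7a1: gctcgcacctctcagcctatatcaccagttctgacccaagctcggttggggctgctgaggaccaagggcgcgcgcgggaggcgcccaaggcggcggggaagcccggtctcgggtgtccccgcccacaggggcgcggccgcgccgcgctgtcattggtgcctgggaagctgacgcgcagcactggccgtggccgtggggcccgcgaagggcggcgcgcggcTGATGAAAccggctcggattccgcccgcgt

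The match began 235 bases before the start of Slc1a4, where it lay on the opposite strand, 142 bases before that of Slc38a1 and 30 bases before that of Slc7a1. A match is a run of letters and not a shown binding site.

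Mitochondrial carriers of metabolite exchange fell, and 3 carriers that were scarce in control liver rose. Slc25a13 (ENSRNOG00000009957), the aspartate-glutamate carrier citrin that supplies aspartate to the urea cycle, fell from 149.9 to 58.1 FPKM, or -1.37 ± 0.16 (SE), by the authors' deposited table (DESeq2 adjusted p = 2.45e-16). Slc25a1, the citrate carrier that exports the carbon for fatty acid synthesis, fell from 108 to 51.5 FPKM (-1.05 ± 0.17) by the authors' deposited table. The dicarboxylate carrier Slc25a10 fell from 71.1 to 45.1 FPKM (-0.65 ± 0.16) and Slc25a44, which carries branched-chain amino acids, from 16.1 to 7.88 FPKM (-0.84 ± 0.22), by the authors' deposited table. Slc25a47, a carrier found mainly in hepatocytes, fell from 217 to 84.8 FPKM (-1.30 ± 0.39) by the authors' deposited table. A list of 15 mitochondrial carriers was named for urea synthesis, gluconeogenesis and fatty acid synthesis, though Slc25a44 on it carries branched-chain amino acids. Of the 15, these 5 were in the authors' deposited table, all lower. All 5 were above 5 FPKM in CSAA, where 81.8% of all genes in the authors' deposited table were lower, so their direction is close to that of other genes at such levels.

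The risers among the mitochondrial carriers included Slc25a4 (ANT1), the ADP/ATP exchanger typical of heart and muscle, which went from 4.39 to 27.5 FPKM, or 2.45 ± 0.37 (SE), by the authors' deposited table. It was the mitochondrial riser with the highest CDAA level, above that of the faller Slc25a44 there. Slc25a21, the oxodicarboxylate carrier of lysine and tryptophan breakdown, went from 0.147 to 2.79 FPKM (3.65 ± 0.40; Cufflinks gave 4.25) by the authors' deposited table. Calcium-regulated ATP-Mg/phosphate carriers moved apart, Slc25a24 from 0.808 to 4.78 FPKM (2.44 ± 0.25) and Slc25a25 from 97.5 to 39.2 FPKM (-1.30 ± 0.33), by the authors' deposited table. Slc25a25 was 121 times the level of Slc25a24 in CSAA and 8.19 times in CDAA by the FPKM of the authors' deposited table.

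Metal carriers had the most one-sided split towards lower expression among groups of more than 3 genes, 6 of 7, where 42.9% of all genes in the authors' deposited table fell. Slc30a10 (ENSRNOG00000002397), the hepatic manganese exporter, fell from 34.6 to 7.79 FPKM, with a DESeq2 fold of 4.42, by the authors' deposited table. Its log2 fold change of -2.14 ± 0.14 had the smallest SE of all 65 genes in the authors' deposited table (DESeq2 adjusted p = 9.74e-47). Slc39a4, the zinc importer ZIP4, fell from 45.5 to 11.8 FPKM (-1.87 ± 0.22) by the authors' deposited table. Slc39a8, the zinc and manganese importer ZIP8, fell least, from 18.3 to 11.8 FPKM (-0.62 ± 0.16), by the authors' deposited table. Manganese and zinc carriers of import and of export were thus both among the fallers. The zinc exporter Slc30a1 went from 33.9 to 18.0 FPKM (-0.89 ± 0.16) and the copper importer Slc31a1 from 97.8 to 55.9 FPKM (-0.80 ± 0.17) by the authors' deposited table. The magnesium carrier Slc41a2 fell from 78.9 to 35.3 FPKM (-1.15 ± 0.19) by the authors' deposited table. All 6 fallers were above 5 FPKM in CSAA, where 81.8% of all genes in the authors' deposited table were lower. Against them stood Slc30a3, a zinc carrier known from synaptic vesicles, which rose from 0.433 to 3.43 FPKM (2.79 ± 0.36) by the authors' deposited table. Of the 6 fallers, 3 had changed at least 2-fold by the authors' deposited table.

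Among carriers of organic ions, bile salts and carboxylates 5 fell and 4 rose. Slc16a10 (ENSRNOG00000000588; chromosome 20, 45143452 to 45260119, rn6), the aromatic amino acid carrier TAT1, had the steepest fall of the 65 genes. It went from 15.5 to 1.85 FPKM by the authors' deposited table. The DESeq2 log2 fold change was -2.84 ± 0.22 (SE), or 7.18-fold lower, by the authors' deposited table (DESeq2 adjusted p = 6.33e-35). Cufflinks, the source of the FPKM, gave -3.06. The organic anion carrier Slc22a7 (OAT2), a basolateral uptake carrier of hepatocytes, fell from 30.6 to 14.8 FPKM (-1.05 ± 0.20) by the authors' deposited table. The sulfate carrier Slc13a4 went from 25.6 to 8.51 FPKM (-1.48 ± 0.45) by the authors' deposited table, with the largest SE among the fallers.

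The opposite direction was taken by Slc17a3, an organic anion carrier of the sodium-phosphate family, which rose from 36.9 to 87.5 FPKM (1.22 ± 0.24, SE) by the authors' deposited table. It had the highest CDAA level of all 34 risers. Slc16a6, a monocarboxylate carrier family member, went from 0.324 to 2.43 FPKM (2.68 ± 0.31) by the authors' deposited table. Slc16a13, of the same family, went from 2.23 to 4.14 FPKM (0.84 ± 0.26) by the authors' deposited table. Slc10a2, the apical bile salt carrier of bile duct and intestinal cells, went from 1.86 to 4.40 FPKM (1.27 ± 0.26) by the authors' deposited table.

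Sugar carriers were divided, with 4 higher and 2 lower. The 4 risers were at 0.737 FPKM or less in CSAA and the 2 fallers at 8.65 FPKM or more. Of all genes in the authors' deposited table, 92.3% of those under 5 FPKM in CSAA were higher and 81.8% of the others were lower. Slc2a5, the fructose carrier GLUT5, fell from 28.2 to 5.75 FPKM, or -2.22 ± 0.28 (SE), by the authors' deposited table. Slc45a3, a sugar carrier homolog, fell from 8.65 to 1.41 FPKM (-2.53 ± 0.25) by the authors' deposited table. The sodium-coupled carriers rose instead. Slc5a1, the glucose carrier SGLT1 of intestine, kidney and bile duct, went from 0.298 to 2.59 FPKM (2.95 ± 0.34) by the authors' deposited table. Slc5a9 (SGLT4) is listed at 0 FPKM in CSAA and 1.75 FPKM in CDAA by the authors' deposited table, so no fold is given. Its fitted log2 values there, 6.10 in DESeq2 and 9.58 in edgeR, differed by more than those of any of the other 64 genes. The sugar phosphate exchangers Slc37a1 and Slc37a2 rose by 1.09 ± 0.27 and 1.36 ± 0.26, to 1.66 and 1.30 FPKM, by the authors' deposited table. Slc2a2, the glucose carrier of hepatocytes, and Slc2a1, that of many growing cells, were not in the authors' deposited table.

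Inorganic ion carriers were few, 2 higher and 2 lower by the authors' deposited table. Both sodium-phosphate carriers of the Slc20 family changed, in opposite directions. Slc20a1 (PiT1; ENSRNOG00000018567; chromosome 3, 121725858 to 121739173, rn6) rose from 15.1 to 56.9 FPKM, or 1.84 ± 0.24 (SE), by the authors' deposited table. Slc20a2 (PiT2; ENSRNOG00000019490; chromosome 16, 74317898 to 74408030, rn6) dropped to 12.7 FPKM from 47.4 (-1.34 ± 0.18) by the authors' deposited table. Cufflinks, the source of the FPKM, gave Slc20a2 a larger fall on the log2 scale, -1.90, and edgeR gave -1.38. The following ratios and sum rest on the Cufflinks values. Slc20a2 was 3.13 times the level of Slc20a1 in CSAA by the FPKM of the authors' deposited table. In CDAA Slc20a1 was 4.48 times the level of Slc20a2 by the FPKM of the authors' deposited table. Their sum was 62.5 FPKM in CSAA and 69.6 FPKM in CDAA by the authors' deposited table. Slc9a7, the sodium/proton exchanger NHE7 of the Golgi, went from 0.559 to 4.28 FPKM (2.86 ± 0.30) by the authors' deposited table. Slc26a1, the hepatic sulfate and oxalate exchanger, fell from 67.6 to 33.9 FPKM (-0.99 ± 0.20) by the authors' deposited table.

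Carriers of thiamine, ascorbate and folate fell, and the choline transporter-like genes and a heme carrier rose. Slc19a2, the thiamine carrier THTR1 (ENSRNOG00000002839), fell from 102 to 17.2 FPKM by the authors' deposited table. Its DESeq2 log2 fold change was -2.34 ± 0.21 (SE), or 5.07-fold lower, by the authors' deposited table (DESeq2 adjusted p = 3.04e-27). Cufflinks gave -2.57. The ascorbate carrier Slc23a1 fell from 33.7 to 18.0 FPKM (-0.89 ± 0.21) and the proton-coupled folate carrier Slc46a1 from 13.6 to 8.14 FPKM (-0.74 ± 0.24) by the authors' deposited table. The heme carrier Slc48a1 (HRG1), which brings heme out of phagolysosomes in macrophages, rose from 10.3 to 23.01 FPKM (1.14 ± 0.22) by the authors' deposited table. All 3 fallers of the group had a higher level in CSAA than its 3 risers. The choline transporter-like genes Slc44a3 and Slc44a4 went from 0.130 to 1.503 FPKM (2.85 ± 0.44; Cufflinks gave 3.53) and from 0.301 to 0.936 FPKM (1.43 ± 0.36) by the authors' deposited table. The choline carriers Slc44a1 and Slc5a7, looked up after the values were seen, were not in the authors' deposited table. Slc44a3 overlaps the actin-binding calponin gene Cnn3 in the GRCr8 annotation. Cnn3 went from 26.3 to 54.3 FPKM (1.01 ± 0.15) by the authors' deposited table. In the rn6 positions of the authors' deposited table these genes do not overlap. There Cnn3 ends at base 225036188 of chromosome 2 and Slc44a3 begins at base 225038581. Whether they share reads was not tested.

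The remaining carriers included Slc29a1, the nucleoside carrier ENT1, which fell from 24.6 to 12.9 FPKM (-0.93 ± 0.19, SE) by the authors' deposited table. Members of the nucleotide sugar family without an assigned substrate moved apart, Slc35e3 by 1.35 ± 0.21 and Slc35e2b by -0.71 ± 0.16 on the log2 scale, by the authors' deposited table. Slc33a1, which brings acetyl-CoA into the endoplasmic reticulum, fell from 58.7 to 34.1 FPKM (-0.75 ± 0.23) by the authors' deposited table. Slc18b1, a vesicular polyamine carrier, rose by 0.82 ± 0.23, and Slc27a3, an acyl-CoA synthetase of the fatty acid transport family, by 1.52 ± 0.36, by the authors' deposited table.

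By family, 33 of the 51 families annotated in GRCr8 had a listed gene, and 8 had listed genes in both directions by the authors' deposited table. Of the 15 families with at least 2 listed genes, 5 were higher throughout (Slc1, Slc5, Slc37, Slc38 and Slc44) and 2 lower throughout (Slc22 and Slc39) by the authors' deposited table. In all 8 divided families each gene that fell had a higher level in CSAA than each gene that rose, by FPKM. This order mostly repeats the level pattern of the 65 genes and is no separate result. No faller was below 8.65 FPKM in CSAA, and 30 of the 34 risers were under 5 FPKM. Slc7a2 was 505 times the level of Slc7a1 in CSAA and 38.98 times in CDAA by the FPKM of the authors' deposited table, so the hepatocyte form stayed the more abundant. For other pairs the order of levels changed, as it did for Slc20a1 and Slc20a2. Slc6a12 was 3.29 times Slc6a6 in CSAA, and Slc6a6 was 2.37 times Slc6a12 in CDAA, by the FPKM of the authors' deposited table. Slc43a1 was 5.44 times Slc43a2 in CSAA, and Slc43a2 was 1.24 times Slc43a1 in CDAA, by the FPKM of the authors' deposited table. The spread between rats behind these ratios was not analysed here.

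**Figure D3:**
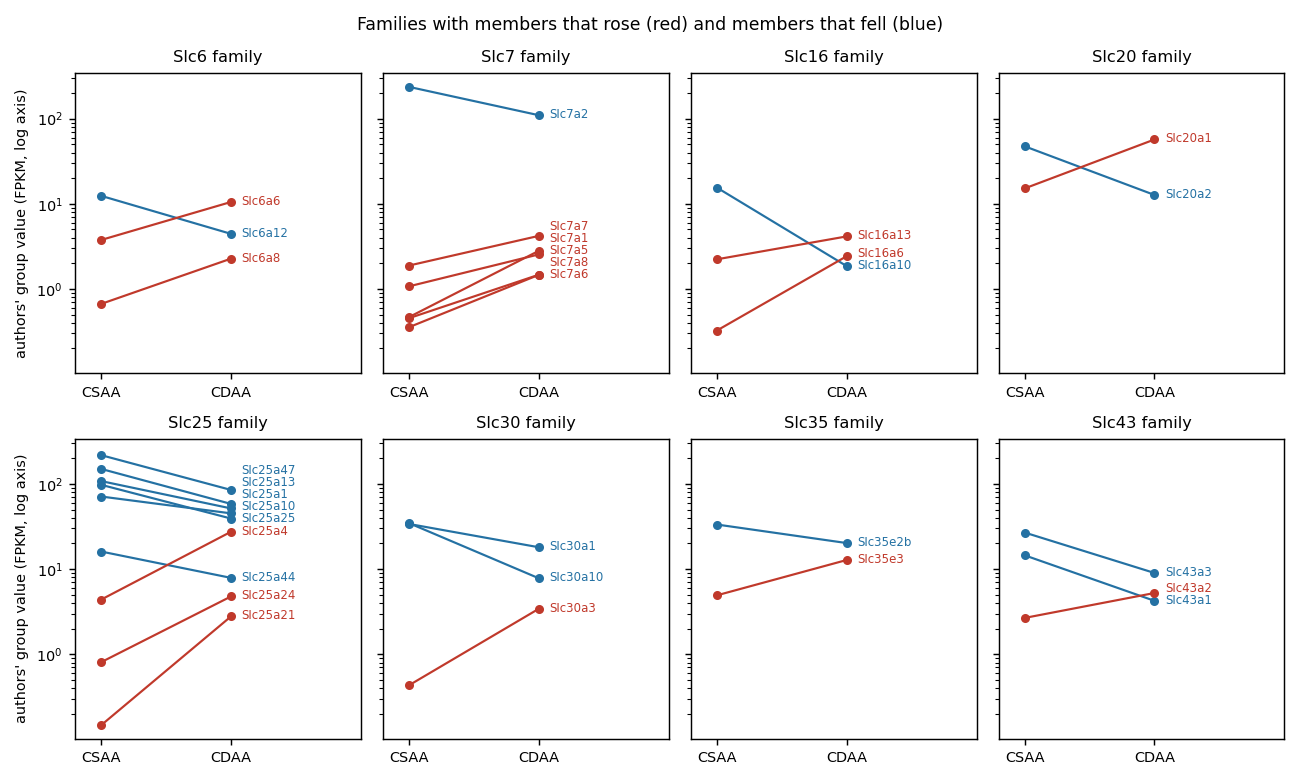
Level in CSAA and CDAA (FPKM, log axis) of the genes drawn from the 8 families with members in both directions, with risers in red and fallers in blue. Lines cross for Slc20a1 and Slc20a2, for Slc6a6 and Slc6a12 and for other pairs such as Slc43a1 and Slc43a2. In contrast, Slc7a2 stays above all other Slc7 genes drawn.

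Grouped by the cells in which textbooks place them, the carriers mostly went in the direction of other genes at their level. Of 34 carriers of hepatocyte uptake and export 13 were in the authors' deposited table, 11 lower (84.6%) and 2 higher (Slc17a3 and Slc38a2). All 13 were above 5 FPKM in CSAA, where 81.8% of all genes in the authors' deposited table were lower. Both listed genes of 16 bile duct and epithelial ion carriers rose, Slc5a1 and Slc10a2, and all 3 listed genes of 10 leukocyte carriers did, Slc37a2, Slc7a7 and Slc43a2, by the authors' deposited table. All 5 were under 5 FPKM in CSAA, where 92.3% of all genes in the authors' deposited table were higher, and the 2 of 16 and 3 of 10 listed stand beside 9.65% of all protein-coding symbols of GRCr8. None of the 4 carriers listed for glucose and lactate in growing or hypoxic cells (Slc2a1, Slc2a3, Slc16a1 and Slc16a3) was in the authors' deposited table. Markers of other cells rose beside them. Of 7 bile duct markers 5 were listed, all higher, with summed levels of 9.85 FPKM in CSAA and 62.9 in CDAA by the authors' deposited table. Of 7 macrophage markers 3 were listed, all higher (8.13 and 24.8 FPKM summed), of 7 stellate cell markers 4 (9.06 and 30.9 FPKM) and of 6 proliferation markers 4 (2.80 and 17.6 FPKM), by the authors' deposited table. Under 5 FPKM in CSAA were 4 of the 5 bile duct, all 3 macrophage, 3 of the 4 stellate cell and all 4 proliferation markers. At such levels 92.3% of all genes in the authors' deposited table were higher. The lymphocyte list had 1 of 7 listed, Ptprc, which rose (3.96 and 12.1 FPKM), and the endothelial list 2 of 6, Vwf higher and Kdr lower (27.2 and 19.99 FPKM summed), by the authors' deposited table. No listed marker was at 0 FPKM in CSAA. The part of these cells in the solute carrier changes was not tested. Of 7 hepatocyte markers 2 were listed, both lower (13622 and 6466 FPKM summed), by the authors' deposited table.

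Other transport genes were counted in the same way, beside 9.65% of all protein-coding symbols listed and, among listed genes, 57.1% higher and 42.9% lower. Of 13 organic anion carriers of the Slco class 7 were listed (53.8%), 6 lower and 1 higher, and of 34 ABC transporters 14 (41.2%), with 8 lower and 6 higher, by the authors' deposited table. Of 12 mitochondrial carriers named outside the Slc pattern 6 were listed, 4 lower and 2 higher, by the authors' deposited table. Among the fallers were the pyruvate carrier genes Mpc1 (396 to 141 FPKM) and Mpc2 (240.4 to 105 FPKM), and the risers were Ucp2 and Sfxn3, by the authors' deposited table. Of 21 ATP-driven pumps and their regulators 7 were listed, 4 higher and 3 lower, and of 11 aquaporins 5, with 3 higher and 2 lower, by the authors' deposited table. The sodium pump subunit gene Atp1b1, whose gradient drives sodium-coupled carriers, went from 21.5 to 48.8 FPKM (1.15 in log2 fold change) by the authors' deposited table. Of 16 partner and scaffold genes 2 were listed, Mal higher and Pdzk1, the scaffold of apical and sinusoidal carriers, lower (27.5 to 13.8 FPKM), by the authors' deposited table.

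In the genome, 4 pairs of neighbouring solute carriers lay within 1000 kb of each other in rn6, and each pair had a common direction by the authors' deposited table. Slc43a1 and Slc43a3, 65.5 kb apart on chromosome 3, both fell, and Slc38a1 and Slc38a2, 48.7 kb apart on chromosome 7, both rose, by the authors' deposited table. Slc7a7 and Slc7a8 on chromosome 15 both rose and Slc22a7 and Slc29a1 on chromosome 9 both fell by the authors' deposited table. All 4 solute carriers on chromosome 13 fell and 5 of 7 on chromosome 7 rose by the authors' deposited table. Those on chromosome 13 were at 8.65 FPKM or more in CSAA. Of all genes at 5 FPKM or more there, 81.8% were lower. The same counts over all listed genes of these chromosomes, or over other neighbouring pairs, were not made, and an effect of position was not tested. In GRCr8, 16 of the 65 genes overlap another protein-coding gene.

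The error of a fold change followed the number of reads behind it. The 21 genes with a mean normalised count under 100 all rose and had a median SE of 0.32 on the log2 scale by the authors' deposited table. The 20 genes with a mean of 1000 or more, 17 of them fallers, had a median SE of 0.19 by the authors' deposited table. Slc25a47 and Slc25a25 stood above the other abundant genes, with SEs of 0.39 and 0.33 at means of 4612 and 3557 counts by the authors' deposited table.

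**Figure D4:**
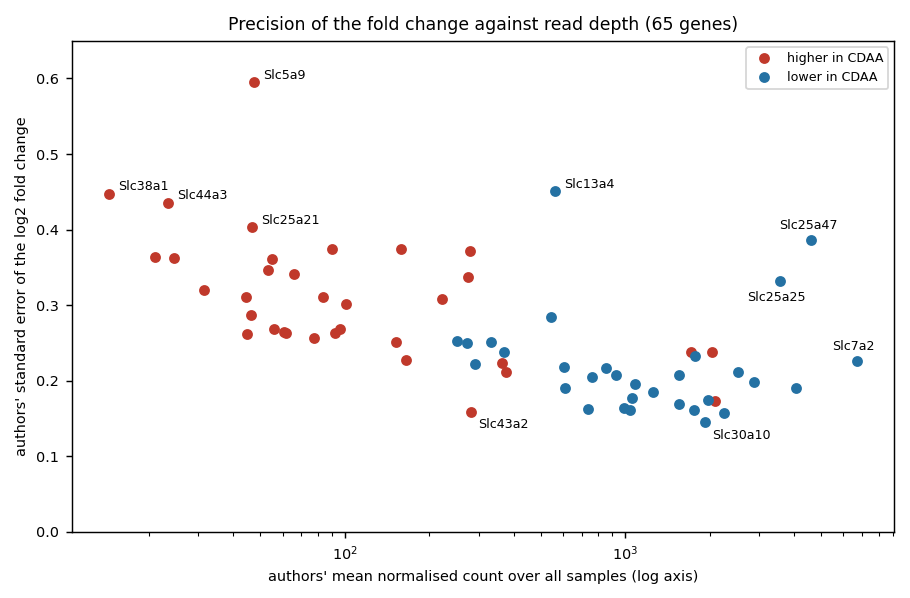
SE of the authors' DESeq2 log2 fold change (vertical) against the mean normalised count over all samples (horizontal, log axis) for the 65 genes, with risers in red and fallers in blue. The SE is largest for Slc5a9 at 0.60 and smallest for Slc30a10 at 0.14.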

How the data were processed

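Liver RNA of 8 rats was sequenced with Illumina TruSeq libraries, per the labels' protocols. The authors' tools were TopHat2, Cufflinks, edgeR, DESeq2 and FastQC on build rn6, per the submitters' processing notes. The sources used here give no counter, annotation or strand setting. The deposited table has no values of single rats, so no test across rats was run. The columns of the authors' DESeq2 run, per the file headers, give mean normalised counts (a signal), log2 fold changes, SE, a Wald score and p-values. The edgeR columns of the authors hold log2 fold changes, log2 CPM and p-values. The authors' Cufflinks group values are taken as FPKM, which the header does not name, and come with a ratio on the log2 scale, a test score and q-values. Mean counts and CPM put the typical library at about 14075500 counted reads.

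Genes were counted by the sign of the authors' DESeq2 log2 fold change, grouped by family number. All 65 may be named by the rule, and the values of 2 are not reported here. Full values went to the 10 largest rises and falls, the 3 largest changes per substrate group with up to 2 of opposite direction, genes over 100 FPKM and genes whose programs differ by over 1.5 times. Members, groups and lists were chosen with earlier results of these data known. Counting was tested on simulated data. Promoters came from RefSeq (GRCr8), whose gene table was used for names and overlaps only. Computations used Python 3.11.15, pandas 2.3.3, numpy 2.4.6 and matplotlib 3.10.9.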

Additional observations from a re-analysis of the deposited data

How the results depend on the processing

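No paired analysis was possible because the table holds no values of single rats, and leaving out a rat, another normalization and an unfiltered fit were not run for the same reason. All 65 genes had the same sign with edgeR, and all 64 with a Cufflinks ratio had it there, with Slc5a9 lacking a ratio. Cufflinks differed from DESeq2 by over 1.5 times for Slc25a21 (4.25) and Slc44a3 (3.53), and edgeR for Slc5a9 (9.58). Leaving out partner protein symbols or shared Cufflinks loci removed no gene. With 5 FPKM asked for, risers numbered 9 in all in place of 34. By group, 3 amino acid carriers, 1 carrier each of inorganic ions, mitochondrial, organic ions, vitamins and other substrates, and 0 of metals and sugars were then higher. With 2-fold asked for, fallers numbered 20 in place of 31, by group 3 metal carriers, 1 each of inorganic ions and vitamins and 0 of nucleosides and other substrates, where 1 riser was left. With all 3 adjusted p-values under 0.001, organic ions and sugars had 2 risers each, vitamins and nucleosides 1 faller each, and other substrates 0 of either direction. Moving Slc16a10, Slc43a3 and Slc13a4 to groups by their own substrate, chosen after seeing the data, left 3 organic ion fallers in place of 5. Adding the 4 left-out genes, also chosen after seeing the data, gave 2 fallers of other substrates in place of 1. Each of the 3 filters can only lower a count. The 5 FPKM filter took risers only, and all 31 fallers were left. A count of all listed genes under that filter is not given here. Depth limits the scarce risers, of which 21 had a mean count under 100.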

Other observations

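The 65 genes are 17.2% of the 378 genes with such symbols in GRCr8, the left-out genes removed, where 9.65% of all protein-coding symbols were in the authors' deposited table. Coverage by substrate group was 27.3% for vitamin, choline and heme carriers, 25.4% for amino acid carriers, 21.9% for metal carriers and 6.78% for inorganic ion carriers. How far the expression of these genes in liver accounts for such shares was not tested, since the table holds no gene that missed the 3 tests. The Slc4, Slc12 and Slc24 families of ion carriers, with 11, 9 and 5 annotated genes, had no listed gene, and the Slc43 and Slc20 families had all of theirs, 3 and 2.

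The antioxidant response element core TGANNNNGC, searched on both strands of the same promoter windows, occurred in 42.5% of all genes with a window (40.4% with 1 window per gene). It occurred in 7 of 27 risers (25.9%) and 14 of 23 fallers (60.9%) among the solute carriers. In the windows of the 3 genes with TGATGNAA it occurred for Slc7a1, at another position. Matches of so short a motif are a description of letters, and genes of a family are not independent.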
